A study of Homo sapiens with 18 samples.

Results

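The endoplasmic reticulum (ER) chaperones and folding enzymes described here are 34 listed genes, taken from a table of 60483 gene identifiers by matching each symbol to 1 Ensembl identifier. All 34 were found, and all had a mean of at least 1 TPM, the length-corrected share of a gene among all transcripts, over the 18 samples, so that none was dropped. By role they comprise 11 genes for the Hsp70 and Hsp90 chaperones of the ER with their cofactors, 4 for lectin chaperones and glucosyltransferases, 14 for thiol oxidoreductases and oxidases, and 5 for prolyl isomerases. ERP29, counted with the thiol oxidoreductases, is a relative of these enzymes that lacks their active pair of cysteines. The rule for choosing them names no measured value other than the minimum of 1 TPM. The members were, however, listed with earlier results of these data known, so that their counts beside those of all genes are descriptions. The gene nearest to the minimum was FKBP7, with a mean of 1.08 TPM, followed by ERO1B with 1.85 TPM.

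The samples were OVCAR5 cells, a wild-type established ovarian carcinoma cell line, in 6 conditions with 3 replicates each. Cells had been kept for 24 h in medium with albumin free of fatty acids, which all conditions shared, and received the vehicle DMSO, 1 µM CAY10566, 50 µM stearate + DMSO, 50 µM stearate + 1 µM CAY10566, 50 µM oleate + DMSO or 50 µM oleate + 1 µM CAY10566. The desaturase SCD1 turns stearate, which is saturated, into oleate, which has a single double bond, and CAY10566 is an inhibitor of this enzyme. All results come from 1 cell line, and the labels number the replicates without saying whether they were separate cultures, so that p-values measure only the spread between these samples.

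Proteins of the secretory pathway enter the ER unfolded. There the Hsp70 protein BiP binds exposed hydrophobic stretches in a cycle driven by ATP, the lectin chaperones hold glycoproteins that carry a glucose residue, protein disulfide isomerases form and rearrange disulfide bonds, and prolyl isomerases turn peptide bonds before proline. When unfolded proteins accumulate, the unfolded protein response raises the transcription of many of these genes through ATF6 and XBP1.

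Comparisons used log2(TPM + 1), which understates changes of genes that are at a low level. A gene passed the test when its Benjamini-Hochberg adjusted p in limma (the false discovery rate, FDR) was under 0.05, adjusted over all 13789 genes with a mean of at least 1 TPM, and the adjusted p-values given are those. The 3 fatty acid groups (control, stearate and oleate) held 6 samples each and pooled those with and without CAY10566. Stearate and oleate were compared with the same 6 control samples. TPM holds no record of the number of reads, so that the depth behind each value is unknown. In bulk samples, fewer cells of a type and less RNA per cell cannot be told apart.

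All 6 epithelial markers were expressed (EPCAM, KRT7, KRT8, KRT18, KRT19 and CDH1), whereas 3 of 4 Müllerian and serous markers (WT1, MUC16 and ESR1) had a mean under 1 TPM and PAX8 had 11.8 TPM. Of 4 gastrointestinal epithelial markers, VIL1 and CDH17 had a mean under 1 TPM, CDX2 had 3.76 TPM, and KRT20 had 1.69 TPM and was lower with stearate than with control (limma adjusted p = 0.0115). Of 8 stromal, endothelial and leukocyte markers, 7 had a mean under 1 TPM, the exception being COL1A1 with 5.04 TPM. The summed TPM of the epithelial markers was 2992 to 3134 in the control, 2410 to 2602 in the stearate and 2729 to 3045 in the oleate samples. It was thus lower in every stearate sample than in any other sample, and KRT7, KRT8, KRT18 and KRT19 passed the test in that direction against control. The part of this shift in the results for the chaperones was not tested. Median-of-ratios size factors, a rescaling that sets the middle gene of each sample equal, were 0.94 to 0.966 in 5 control samples and 1.02 in CAY10566 replicate 3, 0.974 to 1.047 in the stearate and 0.994 to 1.059 in the oleate samples. The counts of members by comparison and by role are therefore also given after rescaling by them.

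The members differed widely in level. TPM is corrected for transcript length, and the means over the 18 samples ran from 607 TPM for P4HB, a protein disulfide isomerase, to 1.08 TPM for FKBP7. HSP90B1, the Hsp90 protein of the ER also called GRP94, had 581 TPM, HSPA5, which encodes BiP, had 498 TPM, CANX, the membrane lectin calnexin, had 467 TPM, and PPIB, the cyclophilin of the ER, had 443 TPM. These 5 genes held 50.0% of the summed TPM of all members. With CALR, the soluble lectin calreticulin, at 366 TPM and the disulfide isomerases PDIA6 and PDIA3 at 358 and 357 TPM, 8 genes held 70.9%. The summed TPM of the 34 members had a lowest, median and highest value of 4803, 4935 and 5024 in the control, 5275, 5353 and 5609 in the stearate, and 5124, 5227 and 5315 in the oleate samples. Every fatty acid sample was above every control sample in this sum, and the stearate and oleate samples overlapped. After rescaling by size factors the sums were 4925, 5127 and 5245 in the control, 5289.8, 5387 and 5449 in the stearate, and 4986, 5031 and 5204 in the oleate samples, so that on this scale all stearate samples were still above all controls, whereas 5 of 6 oleate samples were below the control median. Stearate + DMSO replicates 1 and 2 held the highest value of the 18 samples for 7 and 6 members, and CAY10566 replicate 2 held the lowest for 8.

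**Figure D1:**
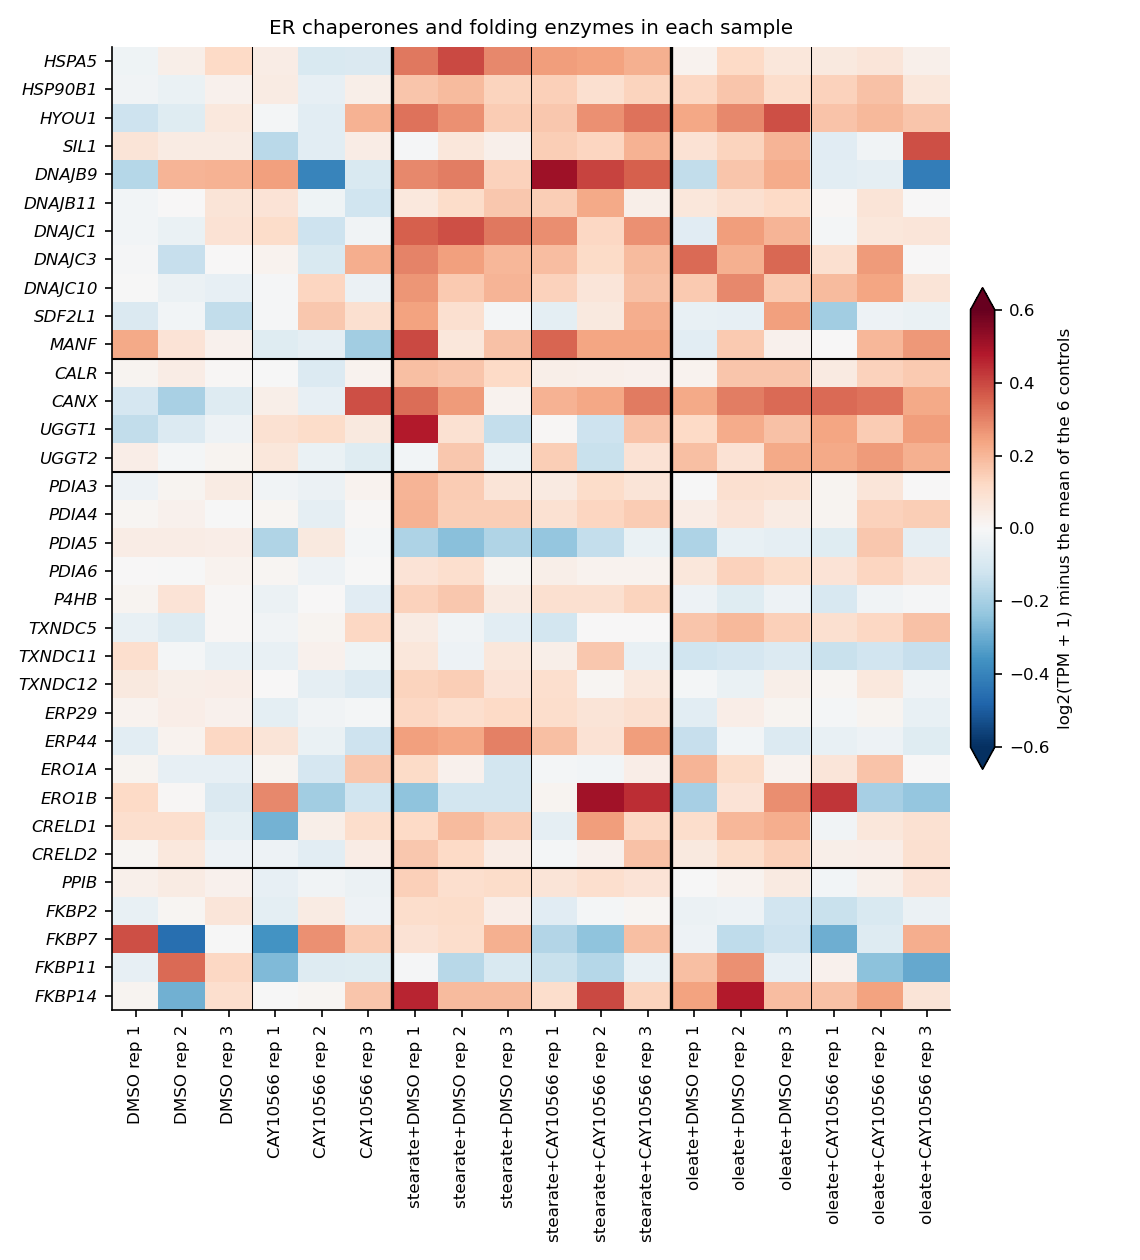
Each row is a member, in the order of its role (lines separate the 4 role groups), and each column is a sample; colour is log2(TPM + 1) minus the mean of the 6 control samples (DMSO and CAY10566). HSPA5, DNAJC1, PDIA3 and PPIB are above the control mean in all 6 stearate columns, CANX is high in CAY10566 replicate 3 (537.8 TPM), and FKBP7, FKBP11 and ERO1B, the members with the lowest TPM, vary widely within groups.

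Promoters of these genes are known for elements through which ATF6 and XBP1 act. The set of RefSeq promoter sequences used (250 bases before to 50 after the start site) held 31 of the 34 members, but not DNAJC1, PDIA3 and FKBP14. The ER stress response element (ERSE) was searched on both strands as CCAAT, 9 bases and CCACG. It was found in 9 of 44 promoters of members (20.5%) against 0.0769% of all 35116 promoters, in the genes HSPA5, HSP90B1, CALR, CANX, PDIA6, ERO1B and CRELD2. ERSE-II, searched as ATTGG, 1 base and CCACG, was in HYOU1 and SDF2L1, which was 4.55% of the members' promoters against 0.0541% of all. The element UPRE, searched as TGACGTGG, was in HYOU1, DNAJC10, TXNDC5 and TXNDC11 (9.09% against 0.729%), and in HYOU1 it overlapped an ERSE-II match. The matches that follow are those of the ERSE genes with the highest TPM and of HYOU1, and are shown because several of these genes are among the members described below. They are written 5′ to 3′ along the gene in GRCh38.p14, with the letters of the element in capitals. A match on the opposite strand reads as its reverse complement.
HSPA5, ERSE, chr9:125241386-125241414, minus strand: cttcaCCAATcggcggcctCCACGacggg
HSP90B1, ERSE, chr12:103930211-103930239, plus strand: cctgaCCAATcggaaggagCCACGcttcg
HSP90B1, ERSE on the opposite strand, chr12:103930316-103930344, plus strand: gggtgCGTGGtgcggcgcgATTGGtgggt
CANX, ERSE, chr5:179698773-179698801, plus strand: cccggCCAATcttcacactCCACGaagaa
CALR, ERSE on the opposite strand, chr19:12938379-12938407, plus strand: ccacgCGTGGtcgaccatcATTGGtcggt
PDIA6, ERSE, chr2:10812848-10812876, minus strand: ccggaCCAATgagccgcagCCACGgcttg
HYOU1, ERSE-II on the opposite strand, chr11:119057269-119057289, minus strand: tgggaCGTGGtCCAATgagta
HYOU1, ERSE-II on the opposite strand, chr11:119057375-119057395, minus strand: cgtgaCGTGGtCCAATcccag
The matches of HSP90B1 and CANX also lay in exons of other transcripts of the genes in GENCODE. A match is a description of the letters and does not show that a factor binds there. With stearate, in the comparison described below, 4 of 9 carriers of an ERSE or ERSE-II passed the test as higher (median log2 fold change 0.09) and so did 11 of the 22 other members with a promoter (median 0.10). With oleate 5 of 9 carriers and 5 of 22 others passed the test as higher, with medians of 0.10 and 0.04. After rescaling 3 carriers and 1 other were higher with stearate and 2 carriers and 0 others with oleate, where 5 others were lower. Over all genes 13.5% were higher with stearate and 23% with oleate, or 7.92% and 9.07% after rescaling. Neither difference between carriers and other members was tested.

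**Figure D2:**
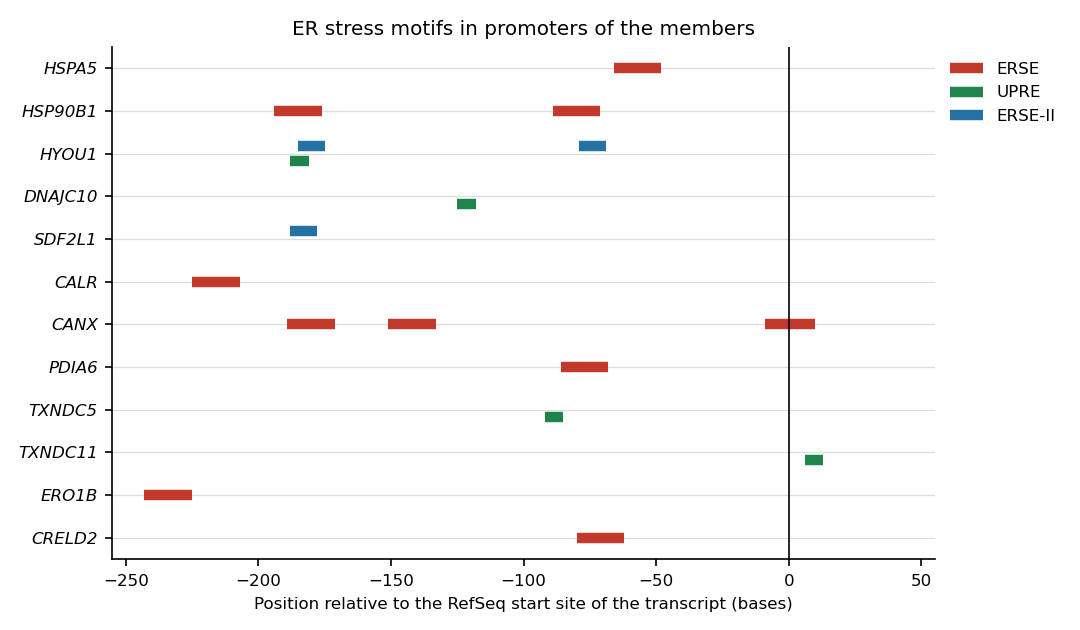
Bars show where ERSE, ERSE-II and UPRE matches lie in the promoters of members, as the distance in bases from the RefSeq start site (0); CANX has 1 match that is drawn 3 times because RefSeq gives 3 start sites. The ERSE of HSPA5 spans positions -66 to -48 and the pair of HSP90B1 spans -194 to -176 and -89 to -71.

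The comparison of stearate with control asks which folding genes respond to the saturated fatty acid, whose toxicity the study examined. Of the 34 members, 18 were higher with stearate and 1 was lower, and the median log2 fold change was 0.10 against 0.06 over all genes tested. Among all 13789 genes, 13.5% were higher and 5.97% were lower. The changes were small, and 1 member (DNAJB9) passed the test with a rise of over 25%, as did 3.46% of all genes. In 7 members all 6 stearate samples lay above all 6 control samples, as in 4.7% of all genes, and after rescaling in 2 (HSPA5 and PDIA4), as in 3.16%. Since well expressed genes pass more often, the share was also taken among the 8081 genes with a mean of at least 10 TPM, of which 16.2% were higher, as were 18 of the 31 members in that range (8.89% and 5 members after rescaling). After rescaling by size factors 5 members were higher (HSPA5, HSP90B1, HYOU1, DNAJC1 and ERP44) and 1 was lower (PDIA5), beside 7.92% and 10.2% of all genes, with a median of 0.05 against 0.01 over all genes. An unadjusted exact permutation p under 0.05 was reached by 20 members and 30.5% of all genes, and after rescaling by 12 members and 29.7%.

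Among the Hsp70 and Hsp90 group, 9 of 11 genes were higher with stearate, or 4 after rescaling, beside 13.5% and 7.92% of all genes for this and the other role groups, and the median log2 fold change was 0.21, or 0.15 after rescaling. HSPA5, which encodes BiP and lies at chr9:125234853-125241382 on the minus strand in GRCh38 (GENCODE), had 450.2, 469 and 498 TPM with DMSO and 472, 429.9 and 431 TPM with CAY10566, against 569, 603 and 559.5 TPM with stearate + DMSO and 545, 541 and 531.5 TPM with stearate + CAY10566. All stearate samples were above all control samples. The log2 fold change was 0.28 (SE 0.036, 95% confidence interval 0.21 to 0.36, limma adjusted p = 2.14e-05), and the exact permutation test gave the smallest two-sided p that 6 against 6 samples allow, 0.00216. The change after rescaling was 0.23 (limma adjusted p = 0.000676), and the call was kept in all 18 fits that left out 1 sample.

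HSP90B1 had a lowest, median and highest value of 526.1, 545.5 and 563.5 TPM in control and 581, 600.1 and 620.5 TPM in stearate samples. These groups did not overlap either, although the log2 fold change was only 0.14 (SE 0.024, limma adjusted p = 0.000365). HYOU1, the large Hsp70 relative that exchanges nucleotide on BiP, went from 61.8, 65.7 and 78.2 TPM to 75.0, 81.8 and 84.8 TPM, with a log2 fold change of 0.25 (limma adjusted p = 0.00297). Its groups overlapped because of CAY10566 replicate 3, the control sample with 78.2 TPM.

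The J-domain proteins deliver substrates to BiP and stimulate its ATPase. DNAJC1, a J protein of the ER membrane, had 17.8, 19.2 and 21.1 TPM in control and 21.3, 24.2 and 25.8 TPM in stearate samples, without overlap, and rose by 0.29 on the log2 scale (limma adjusted p = 0.00222). DNAJB9, also called ERdj4, had 6.72, 9.62 and 11.1 TPM in control and 10.2, 11.8 and 13.5 TPM in stearate samples. Its log2 fold change of 0.33 was the largest among the members, but its groups overlapped and its call (limma adjusted p = 0.0474) was kept in 7 of the 18 fits that left out 1 sample, with 0.115 without CAY10566 replicate 2, and was lost after rescaling (limma adjusted p = 0.0903). DNAJB11, or ERdj3, the J protein with the highest level, had 180, 194 and 206 TPM in control and 200.1, 214 and 229 TPM in stearate samples (log2 fold change 0.13, limma adjusted p = 0.0221). The groups of DNAJB11 overlapped, and its change after rescaling was 0.07 (limma adjusted p = 0.365).

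Of the other genes of this group, DNAJC3 (p58IPK, log2 fold change 0.21), DNAJC10 (ERdj5, a J protein with thioredoxin domains, 0.17) and MANF (a BiP-binding protein that is secreted upon ER stress, 0.24) passed the test, and each was lost after rescaling (limma adjusted p = 0.0539, 0.0618 and 0.105). SIL1, a second exchange factor of BiP, and SDF2L1, a partner of the J proteins, did not pass (0.10 and 0.09, limma adjusted p = 0.318 and 0.377).

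In the lectin group 1 of 4 genes was higher with stearate, and 0 after rescaling. CANX had 358.5, 393 and 537.8 TPM in control and 416.5, 486 and 517.5 TPM in stearate samples. The highest value of both groups was a control, CAY10566 replicate 3, and the log2 fold change of 0.23 (limma adjusted p = 0.0345) was 0.30 without it (limma adjusted p = 0.000277). The call of CANX was kept in 10 of 18 fits that left out 1 sample and had an adjusted p of 0.085 without DMSO replicate 2 in limma. CALR had 329, 351 and 359 TPM in control and 355, 368 and 394 TPM in stearate samples and did not pass (log2 fold change 0.09, limma adjusted p = 0.0602), but passed with CAY10566 as a covariate (limma adjusted p = 0.0424) and in 4 of 18 fits that left out 1 sample. UGGT1 and UGGT2, the sensors that add glucose back to glycoproteins that have not folded, had log2 fold changes of 0.08 and 0.03 (limma adjusted p = 0.51 and 0.677). The stearate samples of UGGT1 ran from 22.3 to 34.8 TPM with a median of 25.7 TPM, and the highest was stearate + DMSO replicate 1.

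Of the 14 thiol oxidoreductases and oxidases, 6 were higher and 1 was lower with stearate, or 1 and 1 after rescaling, and their median log2 fold change was 0.09, or 0.04 after rescaling. P4HB rose from 569, 597 and 630.4 TPM to 619, 646 and 667 TPM (log2 fold change 0.11, SE 0.025, limma adjusted p = 0.0041). PDIA3, the disulfide isomerase that works with the lectin chaperones, had 335, 343.5 and 356 TPM in control and 357.5, 368 and 396 TPM in stearate samples, without overlap (0.11, limma adjusted p = 0.00833). PDIA4 (0.15), ERP29 (0.10) and TXNDC12 (0.09) passed as well, PDIA4 and ERP29 without overlap, and TXNDC12 in 3 of 18 fits that left out 1 sample. None of P4HB, PDIA3, PDIA4, ERP29 and TXNDC12 passed after rescaling. ERP44, which retains ER oxidases and clients by their thiols, had 12.9, 14.1 and 15.5 TPM in control and 15.1, 16.9 and 17.7 TPM in stearate samples. Its log2 fold change was 0.22 (limma adjusted p = 0.00393) and 0.16 after rescaling (limma adjusted p = 0.0333).

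PDIA5 was the only member that was lower with stearate. It had 20.3, 23.8 and 24.1 TPM in control and 19.2, 20.2 and 22.5 TPM in stearate samples, and its lowest control was CAY10566 replicate 1. The log2 fold change was -0.17 (SE 0.055, limma adjusted p = 0.036), -0.23 after rescaling (limma adjusted p = 0.00816), and -0.21 without CAY10566 replicate 1. The call was kept in 10 of the 18 fits that left out 1 sample, with a limma adjusted p of 0.0812 without stearate + DMSO replicate 2. PDIA6 (0.05), TXNDC5 (-0.02), TXNDC11 (0.04), the oxidases ERO1A (0.01) and ERO1B (0.08), and CRELD1 (0.13) and CRELD2 (0.09) did not pass, and the signs of PDIA6, TXNDC11 and ERO1A turned after rescaling, as did those of UGGT2, FKBP2 and FKBP7 in the other role groups. Rescaling moved the median over all genes from 0.06 to 0.01, so that rises as small as these turn with it. PDIA6 had 338, 346 and 351 TPM in control and 350.3, 353 and 371 TPM in stearate samples.

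Of the 5 prolyl isomerases, 2 were higher with stearate, and 0 after rescaling. PPIB had 416, 430.0 and 445.0 TPM in control and 454, 460.4 and 475 TPM in stearate samples, without overlap (log2 fold change 0.10, limma adjusted p = 0.0036), but had 0.04 after rescaling (limma adjusted p = 0.374). FKBP14 had 10.9, 13.7 and 15.3 TPM in control and 14.7, 15.6 and 19.0 TPM in stearate samples (0.25, limma adjusted p = 0.0385, kept in 11 of 18 fits that left out 1 sample, and 0.0737 after rescaling). FKBP2, FKBP7 and FKBP11 did not pass (0.03, 0.03 and -0.10), and their levels were 170 to 193 TPM, 0.76 to 1.41 TPM and 2.29 to 2.69 TPM in stearate samples against 171 to 188 TPM, 0.52 to 1.72 TPM and 2.08 to 3.68 TPM in control.

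**Figure D3:**
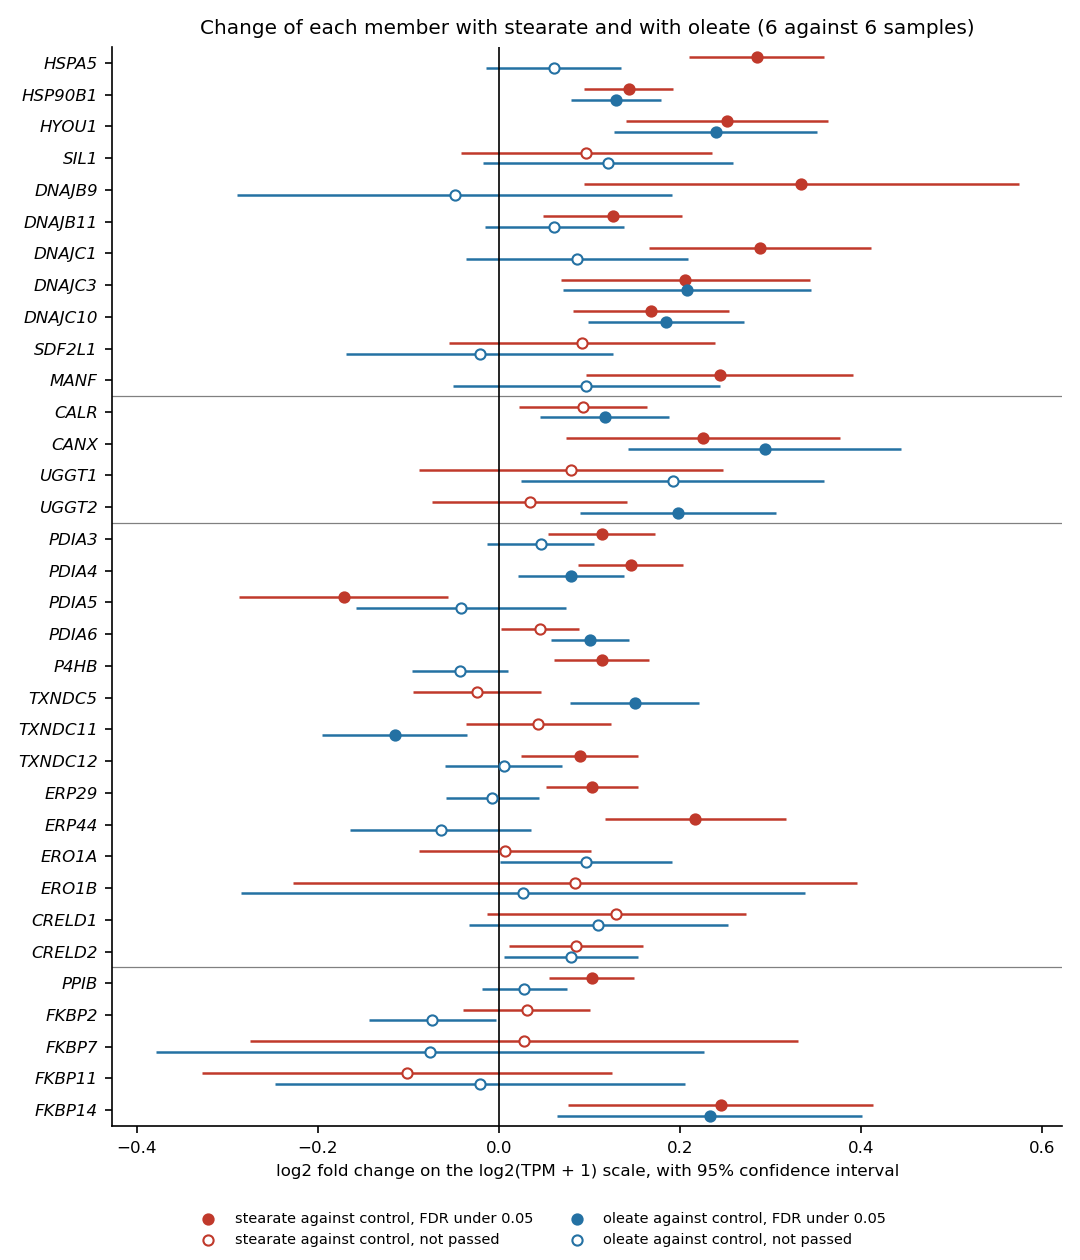
Points are log2 fold changes on the log2(TPM + 1) scale for stearate (red) and oleate (blue) against control, 6 against 6 samples, and bars are 95% confidence intervals; filled points passed the test. With stearate 18 members are higher and 1 is lower, with oleate 11 are higher and 1 is lower, and the intervals of HSPA5 (0.21 to 0.36 and -0.01 to 0.14) do not overlap; after rescaling by size factors the counts are 5 and 1 for stearate and 2 and 5 for oleate.

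With oleate, 11 of 34 members were higher than control and 1 was lower, beside 23% and 2.7% of all genes. The median log2 fold change of the members was 0.08 against 0.09 over all genes, and -0.02 against -0.001 after rescaling. No member passed the test with a rise of over 25% or the inverse fall, which 6.9% of all genes did. Among the genes with a mean of at least 10 TPM, 29.4% were higher with oleate, as were 11 of 31 members (11.4% and 2 members after rescaling). In 4 members (HSP90B1, UGGT1, UGGT2 and PDIA6) all oleate samples lay above all control samples, as in 3.49% of all genes, and in 1 (TXNDC11) all lay below, as in 0.573%. After rescaling these were 0 members above, beside 1.35% of all genes, and TXNDC11 below, beside 1.68%. After rescaling 2 members passed as higher (HYOU1 and CANX) and 5 as lower (P4HB, TXNDC11, ERP29, ERP44 and FKBP2), beside 9.07% and 9.12% of all genes.

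By role, 4 of 11 genes of the Hsp70 and Hsp90 group, 3 of 4 of the lectin group, 3 of 14 thiol oxidoreductases (with 1 lower) and 1 of 5 prolyl isomerases were higher with oleate. After rescaling the counts higher were 1, 1, 0 and 0 in this order, and 4 thiol oxidoreductases and 1 prolyl isomerase were lower. Over all genes 23% were higher with oleate and 2.7% lower, or 9.07% and 9.12% after rescaling. CANX had 481, 511 and 520 TPM in oleate samples (lowest, median and highest), against 358.5, 393 and 537.8 TPM in control. All oleate samples were above the other 5 controls. Its log2 fold change was 0.29 (SE 0.072, limma adjusted p = 0.00786), 0.37 without CAY10566 replicate 3, and 0.19 after rescaling (limma adjusted p = 0.031). HYOU1 had 75.8, 78.3 and 88.5 TPM in oleate samples (0.24, limma adjusted p = 0.00472, and 0.14 after rescaling, limma adjusted p = 0.0245). HSP90B1 had 572, 597 and 614.5 TPM, all above control (0.13, limma adjusted p = 0.00245), but its change was 0.03 after rescaling (limma adjusted p = 0.412).

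UGGT2 had 12.7, 13.4 and 14.1 TPM in control and 14.3, 15.8 and 16.2 TPM in oleate samples, and UGGT1 had 22.2, 25.0 and 26.8 TPM and 27.0, 28.5 and 29.6 TPM. Neither gene overlapped between the groups, and their changes were close. UGGT2 passed the test (0.20, limma adjusted p = 0.0105) and UGGT1 did not (0.19, limma adjusted p = 0.0851). The estimate of the spread also used the stearate samples. Without stearate + DMSO replicate 1 (34.8 TPM), UGGT1 passed as higher with oleate. Neither UGGT1 nor UGGT2 passed after rescaling. CALR rose to 353.5, 386 and 391 TPM (0.12, limma adjusted p = 0.0179) and PDIA6 to 363, 370.2 and 381 TPM (0.10, limma adjusted p = 0.00324). After rescaling CALR was at 0.02 and neither passed (limma adjusted p = 0.753 and 0.971).

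TXNDC5, a disulfide isomerase with thioredoxin domains, had 89.9, 94.4 and 104 TPM in control and 102, 106 and 109 TPM in oleate samples (0.15, limma adjusted p = 0.00501, and 0.05 after rescaling, limma adjusted p = 0.228). DNAJC3 (0.21), DNAJC10 (0.18), PDIA4 (0.08) and FKBP14 (0.23) completed the genes that passed as higher, and none of them passed after rescaling, where PDIA4 was at -0.02. Of the 18 fits that left out 1 sample, FKBP14 lost the call in 9, PDIA4 in 8 and DNAJC3 in 5. FKBP14 had 14.3, 15.9 and 19.2 TPM in oleate samples. TXNDC11, another thioredoxin-domain protein of the ER, was the gene that was lower, with 24.9, 25.4 and 27.7 TPM in control and 23.3, 23.7 and 24.2 TPM in oleate samples. Its log2 fold change of -0.11 (limma adjusted p = 0.0337) was -0.21 after rescaling (limma adjusted p = 0.00474), and the call was kept in 10 of 18 fits that left out 1 sample. FKBP7 (-0.08) and FKBP2 (-0.07) had the next lowest changes and did not pass. FKBP7 had 0.70, 0.94 and 1.42 TPM in oleate samples, within the range of control. DNAJB11 had 195, 205 and 212 TPM with oleate, PDIA3 had 343, 355 and 368 TPM and PPIB had 425, 438 and 455 TPM, and these 3 overlapped control and did not pass. HSPA5 was at 464, 478 and 497 TPM with oleate, overlapping control, and did not pass (0.06, 95% confidence interval -0.01 to 0.14, limma adjusted p = 0.222). It was among 11 members whose sign with oleate turned after rescaling, to -0.04 (limma adjusted p = 0.537). Rescaling moved the median over all genes from 0.09 to -0.001, so that small rises turn with it. Turned signs were not counted over all genes.

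**Figure D4:**
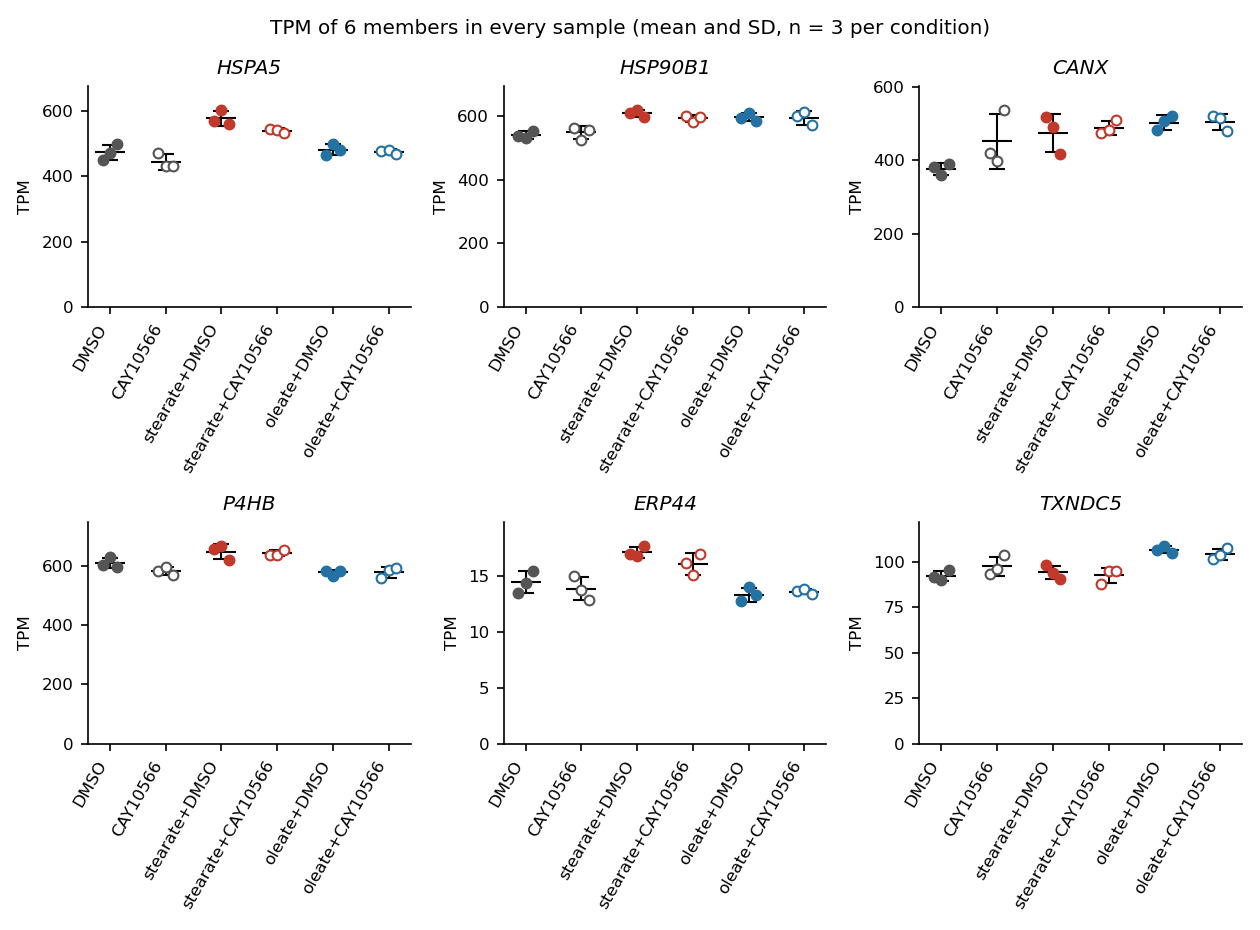
Points are the TPM of HSPA5, HSP90B1, CANX, P4HB, ERP44 and TXNDC5 in each sample by condition (grey control, red stearate, blue oleate, open symbols with CAY10566), and lines give the mean and SD of 3 replicates. HSPA5 is above 531 TPM in every stearate sample and under 498 TPM in every other sample, HSP90B1 is above control with both fatty acids, and TXNDC5 is above 101 TPM in every oleate sample; after rescaling by size factors HSP90B1 and TXNDC5 no longer pass the test for oleate.

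The direct comparison of stearate with oleate asks which genes separate the saturated from the monounsaturated fatty acid at the same dose and time. Its difference uses no control sample, although these entered the estimate of the spread. Here 9 members were higher with stearate and 2 were lower, whereas 6.85% of all genes were higher and 14.3% were lower. The median log2 fold change was 0.04 for the members and -0.03 over all genes. 1 member passed with a rise of over 25% (DNAJB9), beside 1.6% of all genes. After rescaling 12 members were higher, the 9 with the addition of PDIA3, PDIA4 and TXNDC12, and 1 was lower, beside 10.4% and 11.5% of all genes. In 5 members (HSPA5, P4HB, TXNDC11, ERP29 and ERP44) all stearate samples lay above all oleate samples, as in 2.94% of all genes, and in 1 (TXNDC5) all lay below, as in 7.28%. After rescaling these counts were 8 members, beside 4.85%, and again 1, beside 6.29%.

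HSPA5 was higher with stearate than with oleate by 0.22 on the log2 scale (95% confidence interval 0.15 to 0.30, limma adjusted p = 0.000181). ERP44 had 12.8, 13.5 and 13.99 TPM in oleate samples, below every stearate sample, and differed by 0.28 (SE 0.048, limma adjusted p = 0.000341). P4HB had 559, 584 and 592.5 TPM with oleate and differed by 0.16 (SE 0.025, limma adjusted p = 0.000195). These genes and ERP29 (0.11), TXNDC11 (0.16) and DNAJC1 (0.20) passed under every alternative processing tried. DNAJB9 had 6.62, 8.76 and 10.9 TPM with oleate and differed by 0.38 (limma adjusted p = 0.0232). DNAJB9 was kept in 16 of 18 fits that left out 1 sample and had a limma adjusted p of 0.0549 without stearate + CAY10566 replicate 1. PPIB (0.07) and FKBP2 (0.10) also passed, in 16 and 12 of the 18 fits, and FKBP2 had 163, 171 and 174.5 TPM with oleate.

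Lower with stearate than with oleate were TXNDC5, with 87.9, 94.3 and 98.2 TPM against 102, 106 and 109 TPM and no overlap (-0.17, limma adjusted p = 0.00116), and UGGT2, with 12.2, 13.8 and 15.2 TPM against 14.3, 15.8 and 16.2 TPM (-0.16, limma adjusted p = 0.0293). UGGT2 was lost after rescaling (limma adjusted p = 0.108) and in 6 of the 18 fits that left out 1 sample. PDIA5 came next in this order (-0.13), with 20.2, 22.2 and 25.9 TPM in oleate samples, and did not pass (limma adjusted p = 0.105). The lectin group as a whole had log2 fold changes from -0.16 to -0.02 for stearate against oleate, and CALR moved to 0.02 after rescaling.

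On TPM as deposited, the calls of the 3 comparisons divided the members as follows, with both fatty acids set against the same control samples. HSP90B1, HYOU1, DNAJC3, DNAJC10, CANX, PDIA4 and FKBP14 were higher with both fatty acids and did not pass the test between them, with a 95% confidence interval for HSP90B1 of -0.04 to 0.06. HSPA5, DNAJB9, DNAJC1, P4HB, ERP29, ERP44 and PPIB were higher with stearate than with control and than with oleate. DNAJB11, MANF, PDIA3 and TXNDC12 were higher with stearate than with control, CALR and PDIA6 with oleate than with control, and for these 6 the difference between the fatty acids did not pass, although TXNDC12 passed with CAY10566 as a covariate. UGGT2 and TXNDC5 were higher with oleate than with control and than with stearate. TXNDC11 was lower with oleate than with control and than with stearate, FKBP2 passed only between the fatty acids, and PDIA5 only as lower with stearate than with control. SIL1, SDF2L1, UGGT1, ERO1A, ERO1B, CRELD1, CRELD2, FKBP7 and FKBP11 passed in none of the 3.

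This division changed after rescaling, where 17 members passed in none of the 3 comparisons. All genes were not divided in this way on either scale. Of the 7 members higher with both fatty acids, HYOU1 kept both calls, HSP90B1 kept that for stearate and CANX that for oleate. DNAJC3, DNAJC10 and FKBP14 kept neither, and PDIA4 passed only as higher with stearate than with oleate, as did PDIA3, TXNDC12, DNAJB9 and PPIB. HSPA5, DNAJC1 and ERP44 were higher with stearate than with control and than with oleate on both scales, and ERP44 was then also lower with oleate than with control. P4HB, TXNDC11, ERP29 and FKBP2 were lower with oleate than with control and than with stearate after rescaling.

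**Figure D5:**
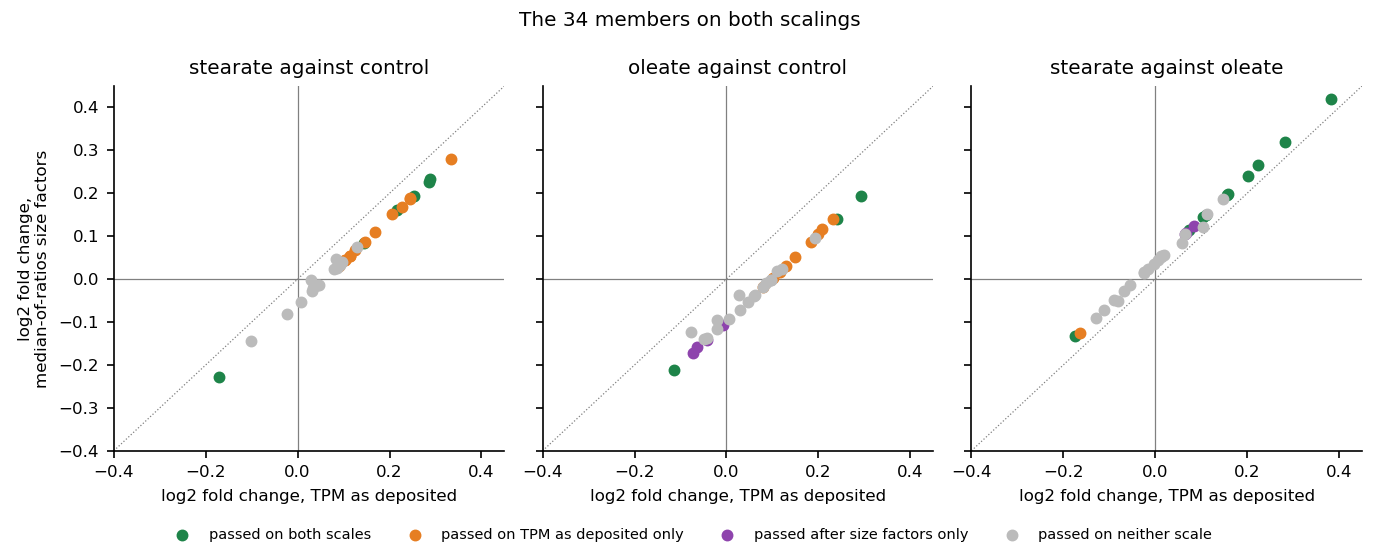
Each point is 1 of the 34 members; the x axis is its log2 fold change on TPM as deposited and the y axis that after rescaling by median-of-ratios size factors, for the 3 comparisons, with the dotted line marking equal values and colour the scale on which it passed the test. Members passing as higher went from 18 to 5 for stearate, from 11 to 2 for oleate and from 9 to 12 for stearate against oleate, where the points lie above the line.

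CAY10566 was compared with DMSO to ask whether blocking desaturation changed these genes. With 9 samples on each side and the fatty acid held as a covariate, 0 of 34 members and 0% of all genes passed in limma, the only tool run. At an unadjusted p under 0.05 there were 4 members and 5.42% of all genes (748 of 13789), or 2 members and 5.18% after rescaling. These members were HSPA5 (-0.07, 95% confidence interval -0.12 to -0.01), CALR (-0.05), FKBP2 (-0.05) and FKBP11 (-0.21). In stearate samples alone 0 members and 0.0145% of all genes passed for CAY10566 against DMSO, with 4 members at an unadjusted p under 0.05, beside 5.52% of all genes, or 2 after rescaling, beside 5.22%. HSPA5 had 577 ± 22.8 TPM with stearate + DMSO and 539 ± 7.01 TPM with stearate + CAY10566 (SD, n = 3), a log2 difference of -0.10 with an interval of -0.19 to -0.01 (limma adjusted p = 0.881).

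Within DMSO, 11 members were higher and 1 was lower with stearate, beside 10.5% and 3.53% of all genes, and within CAY10566 5 were higher (HSPA5, MANF, P4HB, ERP29 and PPIB), beside 2.18%. After rescaling 4 were higher and 1 was lower in DMSO, beside 5.13% and 6.94% of all genes, and 2 were higher in CAY10566, beside 1.86%. The count within DMSO was 5, 2 and 7 without DMSO replicates 1, 2 and 3, and 3 and 4 without stearate + DMSO replicates 1 and 2. The count within CAY10566 was 3 without CAY10566 replicate 3, and 1, 2 and 3 without stearate + CAY10566 replicates 1, 2 and 3. HSPA5 passed in both, with log2 fold changes of 0.29 and 0.28. The interaction of stearate with CAY10566, which tests the difference between these effects, passed in 0 members and in 0.00725% of all genes, and for HSPA5 it was -0.01 (95% confidence interval -0.14 to 0.12). At an unadjusted p under 0.05, which 9.36% of all genes reached, there was 1 member, MANF (0.28, limma adjusted p = 0.514), and after rescaling there were 3, beside 9.13%. MANF had 91.8 ± 6.88 TPM in DMSO, 98.9 ± 11.8 TPM in stearate + DMSO, 78.4 ± 4.57 TPM in CAY10566 and 103 ± 4.64 TPM in stearate + CAY10566 samples (SD, n = 3).

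With oleate, 8 members were higher within DMSO (HSP90B1, HYOU1, DNAJC3, DNAJC10, CANX, PDIA6, TXNDC5 and FKBP14), beside 21.1% of all genes, and 0 in either direction within CAY10566, beside 0.109%. Of the 8, HYOU1, DNAJC3, CANX and FKBP14 also rose by over 25%, which is 4 of 34 members beside 13.2% of all genes, and after rescaling 0 members did so, beside 5.83%. Within DMSO 0 members and 3.1% of all genes were lower with oleate, but after rescaling 3 members were higher and 8 were lower, beside 10.4% and 9.5% of all genes. The count within DMSO was 5 without oleate + DMSO replicate 2, and that within CAY10566 was 2 without CAY10566 replicate 3. At an unadjusted p under 0.05, there were 9 members within CAY10566, beside 13.4% of all genes, or 5 after rescaling, beside 10.9%. The interaction of oleate with CAY10566 passed in 0 members and 0% of all genes in limma, with 3 members (DNAJC3, SDF2L1 and MANF) at an unadjusted p under 0.05, beside 10.3% of all genes, or 5 after rescaling, beside 10.9%.

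Other genes of the ER machinery, and chaperones listed as cytosolic beside them, were counted in the same way in 4 lists that hold none of the 34 members. Of 39 other ER folding genes tested, 12 were higher with stearate and 1 was lower (median log2 fold change 0.07), led by TXNDC16 (0.31), TXNDC15 (0.30) and CLGN, a relative of calnexin (0.24). After rescaling CLGN passed (limma adjusted p = 0.00959), and TXNDC16 and TXNDC15 did not (limma adjusted p = 0.0598 and 0.119). Of 32 genes for translocation, signal peptidase and oligosaccharyltransferase, 10 were higher and 0 lower (median 0.08), led by TUSC3 (0.38), an oligosaccharyltransferase subunit, SEC61A1 (0.28), the pore of the translocon, and SSR1 (0.22). Of 28 genes for ER-associated degradation, 13 were higher and 0 lower (median 0.16), led by HERPUD1, SEL1L and ERLEC1. HERPUD1 had 86.1 ± 3.56 TPM in control, 109 ± 4.39 TPM in stearate and 90.2 ± 1.22 TPM in oleate samples (SD, n = 6). Of 33 chaperones listed as cytosolic, which include the mitochondrial HSPD1 and HSPE1, 9 were higher and 2 were lower with stearate (median 0.01). Those higher included DNAJB4 (0.77), HSPA4L (0.56) and HSPA1B (0.27). The sequence of HSPA1B is nearly that of HSPA1A, so that its value is uncertain. After rescaling, the counts of genes higher and lower were 4 and 4, 5 and 0, 10 and 1, and 7 and 6 in these lists, and the median of the list of cytosolic chaperones turned to -0.05. With oleate 11, 7, 11 and 8 genes of the 4 lists were higher and 0, 2, 0 and 1 lower, or 2, 1, 6 and 0 higher and 3, 7, 2 and 9 lower after rescaling. The shares of all genes higher and lower were 13.5% and 5.97% with stearate and 23% and 2.7% with oleate, or 7.92% and 10.2%, and 9.07% and 9.12%, after rescaling. No difference between the lists was tested. An ERSE was found in 0 promoters of these lists, and an ERSE-II in 1, that of HERPUD1. The UPRE was in 3 of 33 promoters of the translocation list (SEC62, SSR3 and SSR4), or 9.09%, in 2 of 23 of the degradation list (VCP and UBE2J1), or 8.7%, and in 0 of the other two, beside the 9.09% of the members' promoters.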

How the data were processed

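RNA from 18 samples of OVCAR5 cells was measured, 3 replicates in each of 6 conditions, grouped by the labels. The authors sequenced a stranded mRNA library, trimmed the reads with Trim Galore, aligned them to GRCh38 with STAR 2.7.1a per the submitters' processing notes, and deposited TPM per gene, quantified with RSEM per the paper's methods. Every sample sums to the same total, and TPM keeps no depth. A single line that names no gene was left out, and symbols were found for 93.1% of identifiers.

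Tests used limma 3.58.1 in R 4.3.3 (lmFit, then eBayes with its trend option) on log2(TPM + 1), with a pseudocount of 1 and a minimum mean of 1 TPM, and all 18 samples in each fit. Fatty acid groups of 6, CAY10566 with the fatty acid as covariate, and single conditions were separate models. Exact permutation tests over the 924 splits of 6 against 6 samples compared mean TPM for the 34 members in 3 comparisons, and for all genes tested with stearate against control, unadjusted. The limma procedure was tested on simulated data with independent noise and equal numbers of rises and falls. These held no shift over all genes, so that the test does not bear on the choice of scaling. Plots were made in Python 3.11.15 with matplotlib 3.10.9. Promoters came from RefSeq on GRCh38.p14.

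All 34 members were named. Values by group were given for the 3 members of each role group with the highest TPM and for the 3 largest rises and falls in each fatty acid comparison. At most 3 genes of each other list were named, those past the test with the largest change with stearate. Members, lists and tests were chosen with earlier results of these data known. Alternatives were a pseudocount of 0.1, no filter, a mean of at least 5 TPM, no trend, a block for the replicate number, rescaling by median-of-ratios size factors, CAY10566 as a covariate, and leaving out each sample. Protein sequences and other experiments of the study were not analysed here.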

Additional observations from a re-analysis of the deposited data

Results flagged for a closer look

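In 102 groups of 6 samples (34 members in 3 fatty acid groups), 4 samples stood apart from the rest of their group by Dixon's criterion at the 95% level, which chance flags in about 1 of 20 groups. CANX had 537.78 TPM in CAY10566 replicate 3, a control, with the nearest control at 420.56 TPM. DNAJC10 had 44.45 TPM in CAY10566 replicate 2, with the nearest control at 40.43 TPM. PDIA5 had 20.27 TPM in CAY10566 replicate 1, below the nearest control at 22.87 TPM. SDF2L1 had 30.5 TPM in oleate + DMSO replicate 3, with the nearest oleate sample at 25.03 TPM. The 3 controls were all CAY10566 samples, each a different replicate. Without them the log2 fold changes with stearate were 0.30 for CANX, 0.19 for DNAJC10 and -0.21 for PDIA5.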

How the results depend on the processing

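With size factors these counts of members at an FDR under 0.05 changed by over 1.5 times. For stearate against control 5 members were higher, for oleate 2 were higher and 5 lower, and for stearate against oleate 1 was lower. Within DMSO 4 were higher with stearate, and 3 were higher and 8 lower with oleate. Within CAY10566 2 were higher with stearate. For oleate PDIA4 turned to -0.02 (-0.0186). Exact permutation p-values under 0.05 for stearate against control numbered 12 in place of 20, beside 29.7% and 30.5% of all genes. Members past the fold limit with oleate within DMSO fell from 4 to 0, and unadjusted p-values under 0.05 numbered 2 in place of 4 for CAY10566 and for CAY10566 in stearate, 5 in place of 9 for oleate within CAY10566, and 3 in place of 1 and 5 in place of 3 for the stearate and oleate interactions. The number past the fold limit (a rise of 25%) with stearate was 0 with no filter, no trend, size factors, the replicate block or the covariate, and 0 for stearate against oleate with no filter. With no filter, 0 members were lower with stearate, and within DMSO 6 were higher and 0 lower. With no trend 2 were higher within CAY10566, and PPIB and FKBP2 were lost for stearate against oleate.

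Leaving out 1 sample gave 12 to 18 members higher and 0 to 1 lower for stearate, 8 to 12 and 0 to 1 for oleate, and 7 to 10 and 1 to 3 for stearate against oleate, with 0 to 1 past the fold limit in each. Within DMSO it gave 2 to 12 higher and 0 to 1 lower with stearate and 5 to 10 higher with oleate, and within CAY10566 1 to 6 with stearate and 0 to 2 with oleate. Members higher in all such fits numbered 11, 8 and 6 in the 3 comparisons. The shares of all genes in these fits were not counted, so that these numbers do not set the members apart from other genes.

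Deviations of same-numbered samples of different conditions correlated from -0.18 to 0.10 (45 pairs, median 0.01). Those of differently numbered samples correlated from -0.12 to 0.17 (90 pairs, median -0.01). Among the 3 numbers, 9 of 18 samples correlated best with their own. Whether the numbers pair the samples was not tested. With the replicate block 15 members were higher and 1 lower for stearate, 9 and 1 for oleate, and 9 and 2 for stearate against oleate. The shares of all genes were not counted for this setting either. The unknown depth leaves the spread between replicates as the only measure of precision, and FKBP7, ERO1B and FKBP11, under 3 TPM, are the least certain.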
